A study of Mus musculus with 10 samples.

Results

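The clustered protocadherin genes were examined in spermatozoal DNA. These genes lie in 3 neighbouring clusters, alpha, beta and gamma, on mouse chromosome 18. All GENCODE genes of the mm10 build whose symbols begin with Pcdha, Pcdhb or Pcdhg were taken, 58 genes in all (14 alpha, 22 beta and 22 gamma). A CpG was a member if it lay in a first exon of one of these genes or within 1 kb upstream of the gene's start, termed the promoter here, and if every one of the 10 samples had 10 or more reads there. This gave 432 CpG sites of the 904354 CpG sites of the genome that had this coverage. The members comprised 405 CpG sites in first exons and 27 in promoters, and they belonged to 41 genes (10 alpha, 10 beta and 21 gamma). The reference sequence holds 6438 CpG sites in the same windows, of which 1006 had a read in any sample, so that most of each exon was not seen. The 17 genes without a covered CpG site were Pcdha6, Pcdha7, Pcdha9, the first of the pair of gene entries that GENCODE names Pcdha11, Pcdhb4 to Pcdhb11, Pcdhb14, Pcdhb19 to Pcdhb21 and Pcdhga6.

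Clustered protocadherins are cell adhesion molecules of the cadherin family. In the alpha and gamma clusters each gene has its own promoter and its own large first exon, the variable exon, which codes for the extracellular part, the membrane span and the start of the cytoplasmic part, and which is spliced to constant exons shared by the cluster. The beta genes have no constant exons. Most of these promoters are chosen at random in single neurons, and DNA methylation of promoter and variable exon accompanies silence of an isoform. The C-type genes at the ends of the alpha and gamma clusters (Pcdhac1, Pcdhac2, Pcdhgc3, Pcdhgc4 and Pcdhgc5) are exceptions that are mostly expressed without this random choice.

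Spermatozoal DNA of 10 male C57Bl/6 mice had been studied by reduced representation bisulfite sequencing (RRBS), in which MspI fragments are converted with bisulfite so that unmethylated cytosines are read as thymine. In the P-generation, the vehicle-control animals C14 and C8 had received 7.5% DMSO in PBS and the decitabine treated animals D10, D11 and D13 had received 0.1 µg/g decitabine in this vehicle, both given intraperitoneally during 7 weeks, with 3 injections in each week, starting when the mice were 7 weeks old. Decitabine, a cytidine analogue, traps DNA methyltransferases once it is built into DNA. The F3-generation consisted of untreated males, F3C30 and F3C9 from the vehicle-control line and F3D1, F3D31 and F3D7 from the decitabine line. Spermatozoa of the P-generation were collected at 15 weeks and those of the F3-generation at 14 weeks. C14 was the ancestor of F3C30, C8 of F3C9, D10 of both F3D1 and F3D31, and D11 of F3D7, so that the F3 animals of the decitabine line stem from only 2 treated males. Sperm had been released from whole minced epididymides and passed through a cell strainer, a step that other cells of the tissue can pass. The study had examined sperm purity by flow cytometry in randomly chosen animals of the P-generation, whose values are not given by animal. It reports a high purity that hardly differed between the treatment groups. Its authors consider it very unlikely that purity differed between generations and influenced their methylation results.

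The methylation level of a CpG site was the percentage of methylated reads with both strands summed. The summed reads per sample ranged from 48903817 in D13 to 115158278 in F3D1. At the member CpG sites the median number of reads ranged from 32 in D13 to 65 in F3D1. At 32 reads, the 95% Wilson interval of a level of 18.8% ran from 8.89% to 35.3%, and at 65 reads that of a level of 20% ran from 12.1% to 31.3%. These intervals cover counting error only.

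The sperm label was checked with 2 lists of genes that are unmethylated in sperm and methylated, on 1 or both alleles, in somatic cells. The first list held 10 germline genes, among them Dazl and Ddx4, which code for RNA-binding proteins of germ cells, and Sycp1 and Sycp3, components of the synaptonemal complex. In the 9 covered genes of this list the mean level was 15.9% in C14, 30.9% in C8, 26.9% in D10, 30.004% in D11, 22.3% in D13, 15.2% in F3C30, 27.4% in F3C9, 23.0% in F3D1, 14.5% in F3D31 and 13.04% in F3D7. None of the samples was near 0, and C8, D11, F3C9 and D10 were highest by this mean. Single genes did not all follow this order, since C8 had 9.89% in Mael and 17.5% in Sycp3, below most other animals. The second list held 11 maternally methylated imprinted genes, of which 8 were covered, with means between 11.2% in C14 and 23.7% in C8. In Kcnq1ot1 of this list the level was 18.8% in C8 and between 26.2% and 29.4% in the other animals. The H19 window examined here does not reach the upstream control region that is methylated in sperm, and therefore it does not check the label. They are set beside the protocadherin levels of the same animals further on.

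First exons of the clustered protocadherins carried more methylation than those of other genes in every sample. Their mean level was 15.6% ± 3.32 (SD, n = 10), against 3.35% ± 0.314 in the non-clustered protocadherins (518 CpG sites in first exons; 11 of 12 genes with a covered CpG site) and 3.87% ± 0.136 in all other protein-coding genes (272546 CpG sites). The difference was 12.3 percentage points to the non-clustered protocadherins and 11.8 to the other genes, higher in 10 of 10 animals in both cases (exact two-sided sign-flip test over animals, p = 0.00195, the smallest value 10 animals allow, adjusted p = 0.00195 over 4 tests). The promoters of the clustered protocadherins had 8.37% over 27 CpG sites, against 1.46% in the non-clustered protocadherins and 2.51% in other genes, with the same exact p-values. Of these promoter CpG sites, 3 lay in Pcdhb13, with a mean of 51.8%. The promoters had 1.09% in alpha, 3.76% in gamma and 3.31% in beta without Pcdhb13. Without Pcdhb13 the 3 clusters thus lay close to the 2.51% of other genes, with alpha below it. Most of the higher promoter level therefore rested on the 3 CpG sites of this gene. The comparison with other genes was not tested again without Pcdhb13. Most member CpG sites were neither free of methylation nor fully methylated. The level was under 5% in 114 of the 432 CpG sites, between 10% and 40% in 219 and above 50% in 16.

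**Figure D1:**
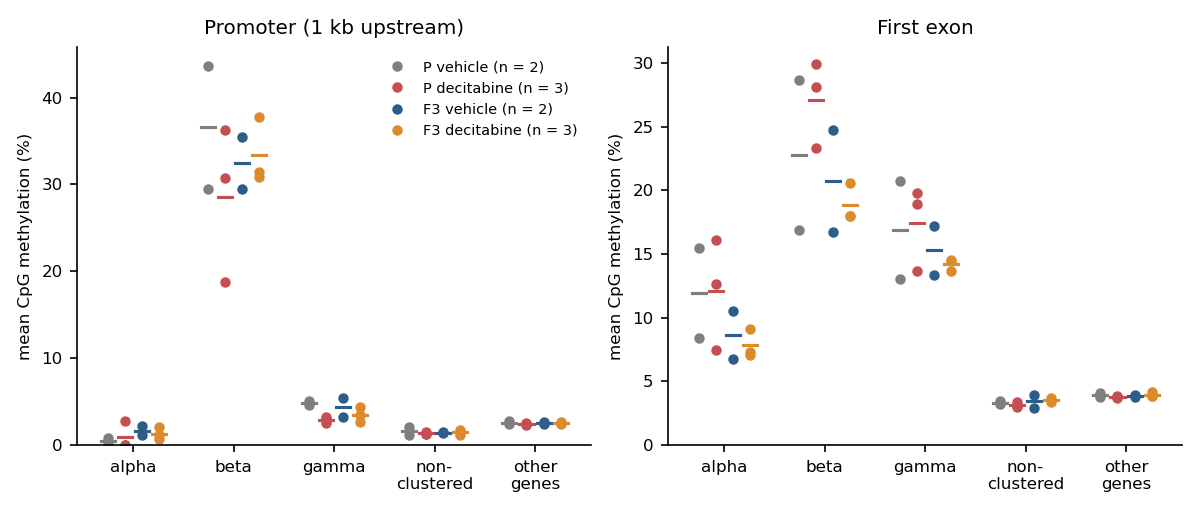
Mean CpG methylation in percent (y axis) of promoters (left) and first exons (right) of the alpha, beta and gamma clusters, the non-clustered protocadherins and all other protein-coding genes. Each point is an animal, short bars are group means, and the scale of the y axis differs between the panels. The first exons of all 3 clusters lie above those of the other genes in every animal, and the beta promoters lie between 18.8% and 43.6%.

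The clusters differed from each other. In the beta first exons (60 CpG sites) the level was 16.9% in C14, 28.6% in C8, 29.9% in D10, 28.1% in D11, 23.3% in D13, 16.7% in F3C30, 24.8% in F3C9, 20.6% in F3D1, 17.97% in F3D31 and 17.9% in F3D7. In the gamma first exons (257 CpG sites) it was 13.03% in C14, 20.7% in C8, 18.9% in D10, 19.8% in D11, 13.6% in D13, 13.4% in F3C30, 17.2% in F3C9, 14.4% in F3D1, 14.5% in F3D31 and 13.7% in F3D7. In the alpha first exons (88 CpG sites) it was 8.39% in C14, 15.5% in C8, 12.6% in D10, 16.1% in D11, 7.47% in D13, 6.79% in F3C30, 10.5% in F3C9, 9.10% in F3D1, 7.34% in F3D31 and 7.09% in F3D7. The order beta, gamma, alpha was present in each of the 10 animals, while C8, D10 and D11 were the 3 highest in every cluster. Beta exceeded gamma by 6.55 percentage points and alpha by 12.4, and gamma exceeded alpha by 5.84 (exact sign-flip tests, each adjusted p = 0.00234 over 6 tests). When every gene was given the same weight instead of every CpG site, gamma and alpha differed by only 0.135 percentage points (adjusted p = 0.914, exact sign-flip test), and 53 of the 88 alpha CpG sites lie in the C-type genes Pcdhac1 and Pcdhac2. Without the C-type genes the first exons had 19.2% in alpha and 19.1% in gamma, and 15.9% in gamma also without Pcdhga7. The beta first exons had 20.7% without Pcdhb13. The sign-flip p-values measure agreement between animals over the same CpG sites and not the spread between genes.

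The first exon was more methylated than the promoter in the alpha and gamma clusters. The alpha promoters had 1.09% ± 0.963 (SD, n = 10), all from 7 CpG sites of Pcdhac1, and the gamma promoters had 3.76% ± 1.04, from 15 CpG sites of 5 genes. The exon exceeded the promoter by 8.996 percentage points in alpha and 12.2 in gamma, in 10 of 10 animals each (exact sign-flip test, adjusted p = 0.00293 over 3 tests). These gaps compare different sets of genes. Within Pcdhac1 the exon had 6.08% and the promoter 1.09%. Of the 15 gamma promoter CpG sites, 7 lay in the C-type gene Pcdhgc3, with 2.44% in its exon and 0.618% in its promoter. Pcdhga11 had 16.2% and 4.46%. Between the promoters, the difference of alpha to gamma was -2.67 percentage points, lower in 9 of 10 animals (exact sign-flip test, adjusted p = 0.00391). With a minimum of 20 reads this difference was -0.350 and no longer passed the test (adjusted p = 0.811, exact sign-flip test). In the beta cluster the promoter was higher, with 32.4% ± 6.58 against 22.5% ± 5.16 in the exon, in 9 of 10 animals (exact sign-flip test, adjusted p = 0.00586). This reversal rested on Pcdhb13 alone. The beta promoters were represented by 3 CpG sites of Pcdhb13 and 2 of Pcdhb2, which had 51.8% and 3.31%, and without Pcdhb13 the beta exons exceeded the promoter by 17.4 percentage points (exact sign-flip test, adjusted p = 0.00195). Without Pcdhb13, beta and gamma promoters differed by -0.447 percentage points, and the difference no longer passed the test (adjusted p = 0.551, exact sign-flip test).

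As a group, the C-type genes were less methylated than the rest of their clusters. Over their 114 first-exon CpG sites the mean was 4.94% ± 1.11 (SD, n = 10), and 33 of their 128 CpG sites had no methylated read in any animal, which was found in no other clustered protocadherin. Pcdhgc4, the isoform known to be needed for survival of cortical interneurons, had the lowest first exon, with 0.433% over 11 CpG sites and values between 0% in C8 and D13 and 0.974% in F3D31. Pcdhgc3 had 2.44% ± 0.816 over 34 CpG sites and 0.618% in its promoter. Pcdhac2, an isoform known for its role in the spacing of serotonergic axons, had 3.195% ± 1.30 over 37 CpG sites. Pcdhac1 had 6.08% ± 2.72 over 16 CpG sites, with the highest value, 11.6%, in C8. Pcdhgc5 stood apart from the other C-type genes with 16.3% ± 2.94 over 16 CpG sites, none of which lay in the first 2 kb of the exon. They began 2009 bp after the gene start, and the first 3 of them had 40.7%, the remaining 13 had 10.6%. Pcdhgc3 and Pcdhgc4 had no covered CpG site in this last stretch, so that the C-type genes could not be compared there.

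The remaining variable exons were described apart from Pcdhga7, which was left out because of its level of 93.5%. Pcdhb12 and Pcdhb13, with 2 covered exonic CpG sites each, fell under the minimum of 3. Leaving out the C-type genes and Pcdhga7, 29 first exons had at least 3 covered CpG sites, with a median level of 17.8%. Their means lay between 6.70% in Pcdha5 and 26.3% in Pcdha2, and even Pcdha5 ranged from 0% in C8 to 19.1% in another animal. Of these 29 first exons, 3 were under 10%, 18 between 10% and 20%, and 8 at 20% or above. The SD over the 10 animals had a median of 6.57 percentage points.

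In the alpha cluster, Pcdha2 (chr18, 36939205 to 37187657, plus strand) had the highest level, with 24.8% in C14, 41.1% in C8, 30.8% in D10, 33.1% in D11, 15.5% in D13, 15.3% in F3C30, 33.1% in F3C9, 20.5% in F3D1, 36.9% in F3D31 and 12.6% in F3D7 over 4 CpG sites. Both generations and both lines held high and low animals of this gene. Pcdha12 followed with 20.6% ± 7.15 over 3 CpG sites. Pcdha8 and Pcdha11, each with 1 covered CpG site and, like Pcdha5, mentioned after their values were seen, had 34.0% and 26.4%.

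In the beta cluster the 6 first exons with at least 3 CpG sites lay close together, from 16.9% in Pcdhb18 and 17.8% in Pcdhb1 to 19.7% in Pcdhb3 and 26.3% in Pcdhb17. Pcdhb17 was at 19.5% or above in each of the 10 animals. The genes Pcdhb12 and Pcdhb13, with 2 exonic CpG sites each, were higher and were likewise picked out by their values. Pcdhb12 had 42.3% ± 8.32, but the surroundings of both its CpG sites recur in the locus, so that reads of paralogues may be included. Pcdhb13 had 72.7% ± 10.3 at coding CpG sites 341 and 386 bp after its start, in addition to 51.8% ± 10.4 in its promoter, so that both elements of this gene were methylated. Its promoter value was 47.8% in C14, 70.1% in C8, 49.5% in D10, 56.9% in D11, 31.3% in D13, 46.7% in F3C30, 58.2% in F3C9, 47.4% in F3D1, 50.1% in F3D31 and 60.1% in F3D7.

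In the gamma cluster, Pcdhga7 (chr18, 37714764 to 37841873, plus strand) was almost fully methylated. It had 91.0% in C14, 96.0% in C8, 90.6% in D10, 93.5% in D11, 92.8% in D13, 93.4% in F3C30, 94.0% in F3C9, 95.6% in F3D1, 92.8% in F3D31 and 95.3% in F3D7. All 8 covered CpG sites, between 37716285 and 37716446 in the coding part of the variable exon, lay between 88.2% and 96.9%, with no animal under 17 reads, and none of their surroundings recurs in the locus. The SD over animals was 1.82 percentage points, at a level that leaves little room for higher values, and C8 was the highest animal here too. No CpG site of its promoter and none of its neighbour Pcdhga6 was covered. The next highest gamma exon was Pcdhga4 with 26.2% ± 6.54, and the other gamma genes outside the C-type ranged from 8.56% in Pcdhga2 upwards. The 2 gamma promoters with at least 3 CpG sites had 4.46% in Pcdhga11 and 0.618% in Pcdhgc3.

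**Figure D2:**
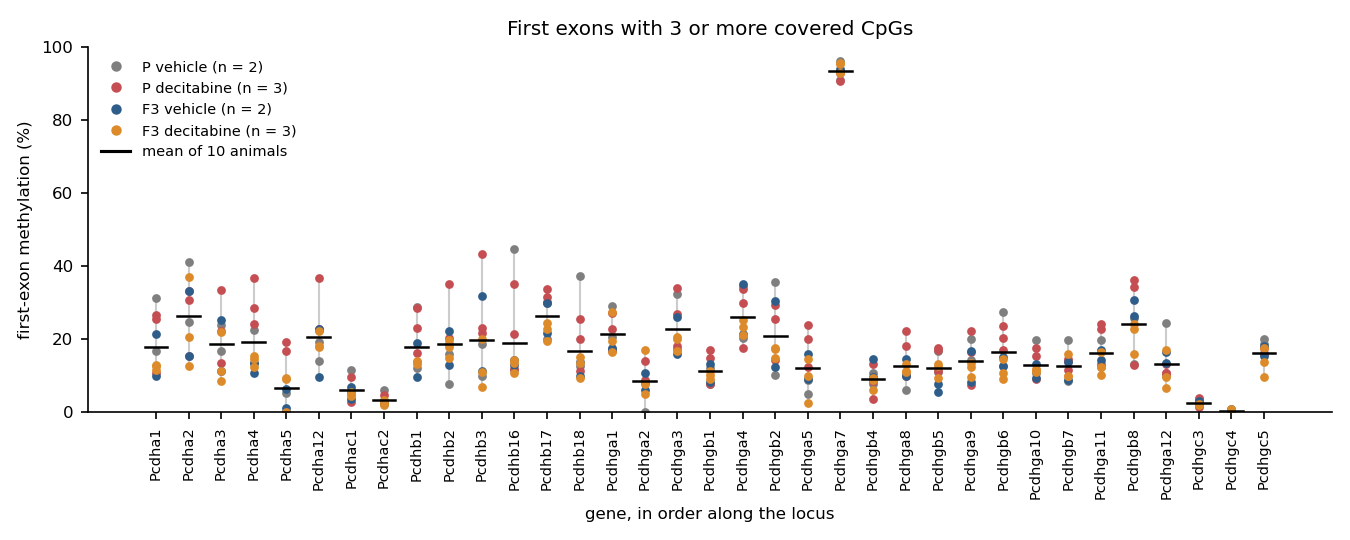
First-exon methylation in percent (y axis) of the 35 genes with at least 3 covered CpG sites, in their order along the locus (x axis). Points are the 10 animals, coloured by group, grey lines span their range and black bars are means. Pcdhga7 stands at 93.5%, Pcdhac2, Pcdhgc3 and Pcdhgc4 lie under 4%, and the remaining exons overlap each other.

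The level also differed with the position in the exon. In the genes other than the C-type and Pcdhga7, the mean over CpG sites was 9.26% in the first 250 bp after the gene start (46 CpG sites), 15.6% from 250 to 500 bp, 18.1% from 500 to 1000 bp and 24.4% from 1000 to 1500 bp (66 CpG sites). It was 16.5% from 1500 to 2000 bp and 19.7% from 2000 to 2500 bp, so that no further increase followed. CpG sites in the 5′ UTR of these genes had 9.26% (35 CpG sites) and those in the coding part 18.9% (248 CpG sites), with the coding part higher in 10 of 10 animals. In the C-type genes the same places had 0.905% and 7.80%, again with the coding part higher in 10 of 10 animals. These values compare different genes, since each gene was covered at only some positions. Across the 35 first exons, the level was weakly and negatively correlated with the number of CpG sites per 100 bp (Spearman's rho = -0.28, a description across genes that share libraries and are not independent). The alpha exons outside the C-type held a median of 4.83 CpG sites per 100 bp and the beta exons 2.32, while their median levels of 18.96% and 18.8% lay close together.

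**Figure D3:**
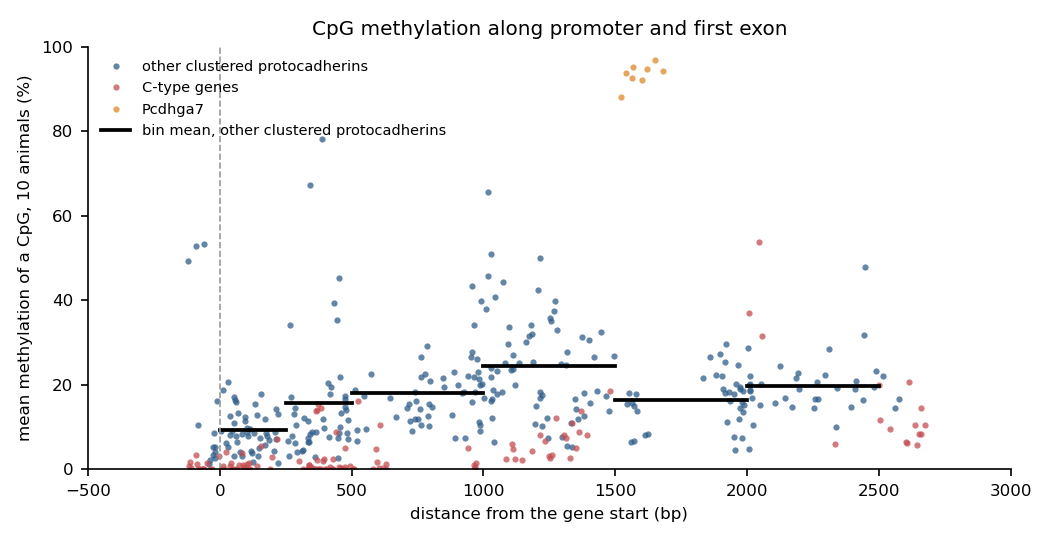
Mean methylation over 10 animals in percent (y axis) of each of the 432 CpG sites against its distance in bp from the gene start (x axis, promoter to the left of the dashed line). Black bars are bin means of the first-exon CpG sites of genes other than the C-type and Pcdhga7, which rise from 9.26% in the first 250 bp to 24.4% between 1000 and 1500 bp, while C-type CpG sites in the first 500 bp are mostly near 0.

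Animals of the same group differed widely. Over all first exons the level was 12.6% in C14, 20.8% in C8, 19.2% in D10, 20.2% in D11, 13.7% in D13, 12.4% in F3C30, 16.9% in F3C9, 14.2% in F3D1, 13.5% in F3D31 and 12.9% in F3D7. C14 and C8, both vehicle-control animals, thus differed from each other by more than any group mean differed from another. Among the 29 first exons named above, C8 was the highest animal in 11, D11 in 9 and D10 in 5. First exons of other protein-coding genes varied only between 3.68% and 4.13% over the same animals. The 4 animals with the highest protocadherin level (C8, D11, D10 and F3C9) were also the 4 with the highest level in the germline genes, and the next highest pair (F3D1 and D13) was shared as well. The part of other cell types in the protocadherin level was not tested. Without these 4 animals, the 13 comparisons of elements, clusters and gene classes within animals kept their direction. The exact sign-flip test passed in 12 of 13 (smallest possible p = 0.0312 with 6 animals), the exception being beta exon against promoter with -10.8 percentage points and an adjusted p = 0.0625. The 6 animals left still had germline gene levels between 13.04% in F3D7 and 23.0% in F3D1. Leaving out the 4 therefore does not test the part of other cell types either.

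**Figure D4:**
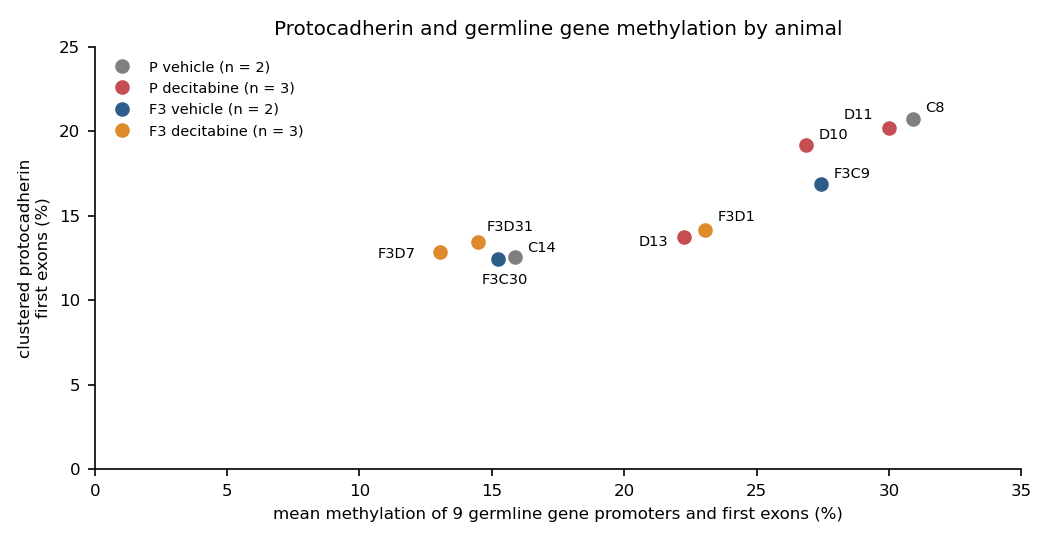
Mean first-exon methylation of the clustered protocadherins (y axis, percent) against the mean methylation of the 9 covered germline genes (x axis, percent), 1 point for each animal, coloured by group. C8, D11, D10 and F3C9 are highest on both axes, and they come from 3 of the 4 groups.

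The direct effect of decitabine was examined first at single CpG sites in the P-generation. A CpG site was called if the summed reads of the groups differed by 25 percentage points or more and the q-value was under 0.01 (likelihood-ratio test of a logistic model, Benjamini-Hochberg adjustment over all 904354 CpG sites). Of the 432 members, 6 were called (1.39%), against 0.67% of all CpG sites. The shares of CpG sites given here and below were not matched for level, and a site near 0% has little room for such a difference. In first exons, 95 of 405 members were under 5%, against 247544 of 272546 CpG sites of other protein-coding genes. A higher share among the members is therefore not read as a stronger response of these genes. The level was higher in the decitabine treated animals in 4 (0.926%, against 0.316% of all CpG sites) and lower in 2 (0.463%, against 0.354%). The model contains no term for variation between animals of a group, and with such a term (F test with overdispersion) 0 CpG sites of the genome were called, with 13 members at an unadjusted p under 0.05 (3.01%, against 1.12% of all CpG sites). With limma per CpG site, again 0 were called, with 41 members at an unadjusted p under 0.05 (9.49%, against 5.62%). The number of called members was 40 without C14 (9.2%, against 4.33% of all CpG sites) and 13 without D13 (3%, against 0.848%), and it was 2 of 258 with a minimum of 20 reads (0.775%, against 0.491%).

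Of the 6, all but the one in Pcdhac1 separated the groups in the P-generation, among them a pair of CpG sites in Pcdhb2. At the CpG site 905 bp after the start (chr18, 37295717, coding), the level was 6.25% in C14, 0% in C8, 28.6% in D10, 45.5% in D11 and 37.9% in D13, a difference of 35.8 percentage points (q = 8.52e-05, likelihood-ratio test). At the CpG site 17 bp before it, it was 6.25% in C14, 4.35% in C8, 42.9% in D10, 28.6% in D11 and 31.03% in D13, a difference of 26.6 (q = 0.00422). In the F3-generation the vehicle line and the decitabine line overlapped at the first of these CpG sites, with 6.25% in F3C30, 27.8% in F3C9, 30.8% in F3D1, 0% in F3D31 and 17.0% in F3D7.

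The other called CpG sites were single positions. In the 5′ UTR of Pcdhga8 (53 bp after the start) the level was 9.68% in C14, 0% in C8, 47.1% in D10, 53.3% in D11 and 10.7% in D13, so that D13 was close to the vehicle-control animals, and the difference was 30.98 percentage points (q = 0.000103, likelihood-ratio test). In Pcdhgb8 (1858 bp) it was 14.5% in C14, 5.13% in C8, 35.8% in D10, 43.5% in D11 and 28.6% in D13, with every treated animal well above the vehicle-control animals. C8 was the highest animal at both CpG sites that were lower in the decitabine group. In Pcdhac1 (369 bp), C8 had 57.5% and the other 4 animals lay between 0% and 18%, and without C8 the difference turned from -28.8 to 1.89 percentage points. In Pcdhgc5 (2613 bp), the level was 31.2% in C14, 81.8% in C8, 5.00% in D10, 13.3% in D11 and 11.5% in D13, with 11 reads in C8. Without C8 the difference at this CpG site was -21.4 in place of -42.0 percentage points and was no longer called. In the P-generation, 66 of the members (15.3%) had decitabine and vehicle animals that did not overlap, against 8.39% of all CpG sites.

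Averaged over clusters, decitabine and vehicle animals of the P-generation overlapped in 5 of 6 elements. The alpha first exons had 12.1% ± 4.32 (SD, n = 3) in the decitabine group and 11.9% ± 5.02 (n = 2) in the vehicle group, the beta first exons 27.1% ± 3.42 and 22.8% ± 8.33, and the gamma first exons 17.5% ± 3.34 and 16.9% ± 5.43. Only the gamma promoters were apart, with 5.11% in C14 and 4.63% in C8 against 2.52% in D10, 3.21% in D11 and 3.03% in D13, which amounts to -1.94 percentage points (p = 0.1 in the exact permutation test, the smallest value that 3 against 2 animals allow, adjusted p = 1 over 12 tests). This element is small, and with equal weight for each gene the difference was -4.36, with 1 CpG site each from Pcdhga2, Pcdhga9 and Pcdhga10.

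Gene by gene, 39 elements (35 first exons and 4 promoters) with at least 3 CpG sites were tested with limma, using the log2 ratio between methylated and unmethylated reads, together with 25794 elements of all genes. No member was called in the P-generation (0% of all elements, adjusted p at least 0.675), and 2 members had an unadjusted p under 0.05, 5.13% against 7.28% of all elements. These were the first exons of Pcdha4 and Pcdhga2, both higher in the decitabine group, as were 3.03% of all elements. In Pcdha4 the level was 13.5% in C14, 22.6% in C8, 28.4% in D10, 36.6% in D11 and 24.1% in D13, a log2 difference of 1.04 ± 0.43 (SE). In Pcdhga2 it was 7.98% in C14, 0% in C8, 8.34% in D10, 14.1% in D11 and 8.78% in D13, from 3 CpG sites. The largest increase in percentage points was that of Pcdhb3, by 15.04, with 18.6% in C14, 9.96% in C8, 21.7% in D10, 23.0% in D11 and 43.3% in D13. The largest decrease was that of the Pcdhb13 promoter, by -13.1, with C8 at 70.1% and D13 at 31.3%. Within the gamma cluster the extremes were Pcdhga5 with 11.9 and Pcdhga12 with -5.44, and within the alpha cluster Pcdha4 with 11.7 and Pcdha2 with -6.48. Of the 39 elements, 20 were higher on the log2 scale and 19 lower in the decitabine group (48.7% lower, against 55.0% of all elements). Groups that did not overlap in mean percentage were found in 8 elements (20.5%, against 19.5% of all elements), and on the log2 scale in 6 (15.4%, against 20.6%).

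**Figure D5:**
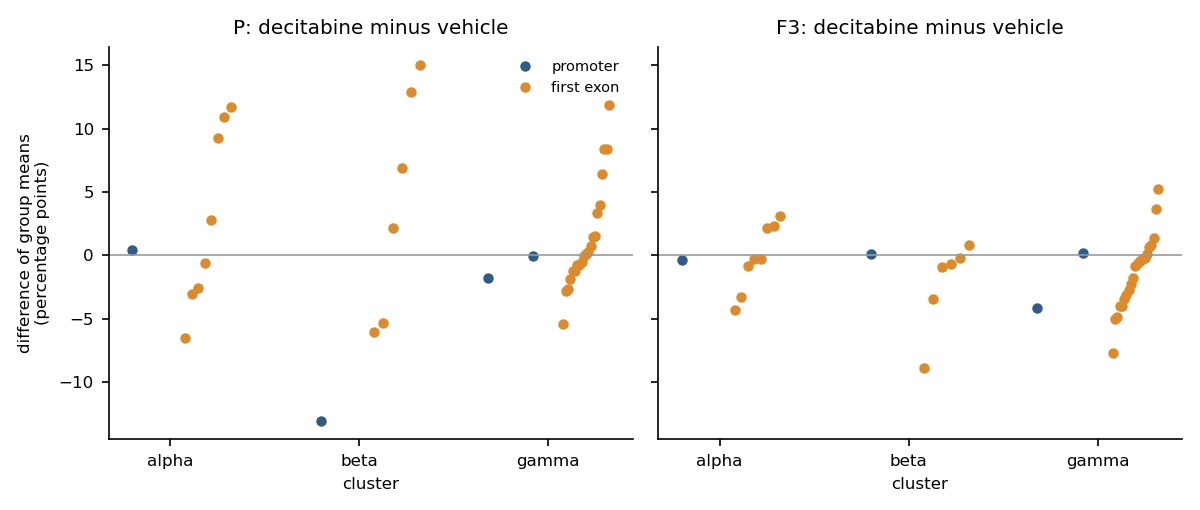
Difference between decitabine and vehicle group means in percentage points (y axis) for each of the 39 elements with at least 3 covered CpG sites, by cluster (x axis) and kind of element, in the P-generation (left) and the F3-generation (right). The differences lie on both sides of 0 in both generations, from -13.1 to 15.04 in P and from -8.90 to 5.22 in F3.

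In the F3-generation, which asks whether the line of the treated males differed without treatment of its own, 1 of 432 members was called (0.231%), against 0.216% of all CpG sites, and it was lower in the decitabine line, as were 0.069% of all CpG sites. It lay in Pcdhga4 (850 bp after the start, chr18, 37686060, coding), with 28.0% in F3C30, 48.3% in F3C9, 8.33% in F3D1, 16.7% in F3D31 and 0% in F3D7, a difference of -32.0 percentage points (q = 5.32e-05, likelihood-ratio test). The groups did not overlap at this CpG site, which had been selected by their difference. In the P-generation it had 19.05% in C14, 11.1% in C8, 12.9% in D10, 36.4% in D11 and 14.3% in D13, without the same order. With the term for variation between animals 0 CpG sites were called, with 7 members at an unadjusted p under 0.05 (1.62%, against 1.24%). Limma per CpG site also called 0, with 23 members at an unadjusted p under 0.05 (5.32%, against 3.7%). Without F3C30 13 members were called (3.01%, against 1.25% of all CpG sites), without F3C9 0 (against 0.0713%). Groups that did not overlap were found at 59 members (13.7%), against 9.73% of all CpG sites.

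No difference of a cluster mean between the lines of the F3-generation passed the test (exact permutation tests, p between 0.5 and 0.8). None could have passed, since 3 against 2 animals allow no p under 0.1 in this test. In the decitabine line the first exons had 7.85% ± 1.097 (SD, n = 3) in alpha, 18.8% ± 1.51 in beta and 14.2% ± 0.450 in gamma, against 8.65% ± 2.64 (n = 2), 20.7% ± 5.69 and 15.3% ± 2.72 in the vehicle line. F3C9 was the highest and F3C30 the lowest of the 5 animals in each of these 3 elements. No element was called with limma (0% of all elements, smallest adjusted p = 1.00), and 1 member had an unadjusted p under 0.05, 2.56% against 3.5% of all elements. This was the first exon of Pcdhgb5, with 7.56% in F3C30, 5.45% in F3C9, 12.7% in F3D1, 13.3% in F3D31 and 9.24% in F3D7, which was higher in every animal of the decitabine line (direction shared by 2.36% of all elements at this p). Pcdhb3, which had the largest increase in the P-generation, had the largest decrease here, by -8.90 percentage points, with 31.8% in F3C9 against 11.3% in F3C30 and values between 6.9995% and 19.96% in the decitabine line. The largest decrease was -7.66 in the gamma cluster (Pcdhgb8) and -4.31 in the alpha cluster (Pcdha3), and the largest increases were 5.22 in Pcdhgb5, 3.11 in Pcdha12 and 0.837 in Pcdhb18. Lines that did not overlap in mean percentage were found in 3 elements, Pcdhgb4, Pcdhgb5 and Pcdhgb8 (7.69%, against 18.7% of all elements), and on the log2 scale in 6 (15.4%, against 17.9%). On the log2 scale 26 of the 39 were lower in the decitabine line (66.7%, against 45.9%), and in mean percentage 27.

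The difference between the effects in both generations did not pass the test in any of the 6 elements (exact permutation of agent within generation, p at least 0.33, adjusted p at least 0.78). It was -6.24 percentage points in the beta first exons and 8.82 in the beta promoters. With limma, no element was called (0% of all elements, smallest adjusted p = 0.89), and 1 of 39 members had an unadjusted p under 0.05 (2.56% against 5.4%, and 1.91% with the same sign), the first exon of Pcdhga5, with a log2 difference of -2.31 ± 1.01 (SE).

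Between the generations, the mean of the first exons was lower in the F3 animals in all 3 clusters, without passing the test. Averaged over both lines, the difference of F3 to P was -3.75 percentage points in alpha (12.0% in P, 8.25% in F3), -5.15 in beta (24.9% and 19.8%) and -2.41 in gamma (17.2% and 14.7%), with exact permutation p = 0.1, 0.15 and 0.4 and adjusted p = 0.45, 0.45 and 0.6 over 6 tests. The promoters differed by 0.776 in alpha, 0.359 in beta and 0.00890 in gamma. On the log2 scale, 33 of the 39 elements (84.6%) were lower in F3, against 43.2% of all elements, and the median difference was -0.38 in the members and 0.09 in all elements. The 39 elements share the same libraries and are not independent observations. In 11, 9 and 5 of the 29 first exons named above, the highest animals were C8, D11 and D10, all of the P-generation. The shares of all elements, here and above, were not matched for level. None was called with limma (0% of all elements, smallest adjusted p = 0.773). At an unadjusted p under 0.05 there were 4 members, 10.3% against 6.32% of all elements, the first exons of Pcdha4, Pcdhb1, Pcdhgb5 and Pcdhgb6, all lower in F3 (2.32% of all elements in this direction). In Pcdha4, the 5 F3 values lay between 10.6% and 15.3% and those of the P-generation between 13.5% and 36.6%. The mean level of the germline genes lay between 15.9% and 30.9% in the P animals and between 13.04% and 27.4% in the F3 animals. A relation of this level to the difference between the generations was not tested. All P animals had been injected, C14 and C8 with DMSO vehicle and D10, D11 and D13 with decitabine in this vehicle, and no F3 animal had. The paper also states that males of the F3-generation were not mated. Generation, age at collection, mating, the injections, DMSO and decitabine cannot be told apart in this comparison.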

How the data were processed

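For each of the 10 samples the authors deposited the methylated and unmethylated read number of every CpG cytosine, as pairs of counts, unfiltered and with strands separate. Per the labels, CASAVA 1.8.2, Trim Galore 0.3.3, cutadapt 1.1 and Bismark 0.10.1 were used on mm10. RRBS sees only MspI fragments, and reads that map to several paralogues are lost or misplaced: 33 member CpG sites have converted surroundings of 50 bases that occur again in the locus.

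Strands were assigned with GRCm38 and summed, and at least 10 reads in all 10 samples were required. Genes came from GENCODE M21. Percentages were averaged over CpG sites. CpG sites were tested by likelihood ratio, elements with limma 3.58.1 on log2 ratios with 1 added to each number (R 4.3.3), and means by exact two-sided permutation or sign-flip tests (Python 3.11.15, numpy 2.4.6, scipy 1.17.1, pandas 2.3.3, matplotlib 3.10.9). Adjustment was by Benjamini-Hochberg with a threshold of 0.05 unless stated. The scripts were tested on simulated data. Alternatives were other read minimums, windows, weights, tests and leaving out each animal. Groups were taken from the agent and generation given in the labels. The animals are separate, but related between generations.

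The members and lists were chosen with earlier results of these data known. Genes were named if C-type, if they had 1 of the 2 highest or lowest levels or the largest differences of a cluster, or a called CpG site. Sequences are not printed.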

Additional observations from a re-analysis of the deposited data

How the results depend on the processing

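The numbers of called CpG sites depended most on the processing. In the P-generation 24 members were called when differences from 10 percentage points upwards counted (2.12% of all CpG sites), 2 with a minimum of 20 reads (0.491%), 0 with overdispersion and 0 with limma, and between 5 and 40 when single animals were left out (0.266% to 4.33%). In the F3-generation these numbers were 6 (1%), 0 (0.128%), 0 and 0, and between 0 and 13 (0.0713% to 1.25%). A minimum of 20 reads gave for the alpha promoter -3.50 percentage points between the F3 lines, -0.262 between the generations, -4.03 for the difference of both effects and -0.350 against gamma, where the test was lost. Equal weight for genes gave for the gamma promoter -4.36 in P, 0.553 in F3 and 4.92 for the difference of both effects, for beta exon against promoter -0.388 and for alpha against gamma exons -0.135, the last 2 no longer past the test. Leaving out single animals gave -1.54 to 10.9 in P beta exons, -3.63 to 4.62 in P gamma exons, -3.44 to 3.37 in P alpha exons, -15.04 to -0.879 in P beta promoters, -5.92 to 2.13 in F3 beta exons and -1.93 to 0.259 in F3 gamma promoters. The difference of both effects then ranged from -12.1 to -0.350 in beta exons, -5.75 to 2.54 in gamma exons and 0.0124 to 2.20 in gamma promoters. The lowest values in P exons were those without C14 and the highest those without C8, so that the sign turned without C14.

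In alternatives chosen after seeing the data, beta exon against promoter was -10.8 without the 4 animals highest in germline genes and 17.4 without Pcdhb13, and beta against gamma promoter was -0.447 without Pcdhb13. The Pcdhac1 CpG site ranged from -47.3 to 1.89 when single animals were left out, the latter without C8. The causes were not tested. No member element was called with limma with another pseudocount, mean percentages, 20 reads, 1 CpG site per element or any animal left out, although without C14 172 of all 25817 elements were called in P. With 2 vehicle animals per generation, no comparison of decitabine and vehicle cluster means within a generation could reach an exact permutation p below 0.1. The Wilson interval of 1 animal at the median of 46 reads ran from 10.7% to 33.2% around 19.6%.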
